A study of Mus musculus with 12 samples.

Results

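The genes described here encode 8 cell surface molecules linked to the sorting of olfactory sensory axons into glomeruli: Kirrel2, Kirrel3, Epha5, Efna5, Cntn4, Pcdh10, Sema7a and Plxnc1. They were selected by name, with 24 h values of some of them in these data already known, and each was read from the 1 probe that the annotation pairs with its symbol. All 8 were measured, out of 19937 genes. The values come from the olfactory epithelium of male C57BL/6 mice that were entrained to 12 h of light and 12 h of darkness for at least 14 days and then kept in constant darkness. Tissue was taken every 4 h from circadian time (CT) 12 to CT56. Each of the 12 time points was a single array, hybridised with RNA pooled from 4 mice (48 animals altogether). CT12 to CT24 is the subjective night, when mice are active, and pools that lie 24 h apart share a phase of the day, so that 6 phases have 2 pools each.

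Each sensory neuron expresses 1 kind of odorant receptor, and axons with the same receptor meet in the same glomeruli of the olfactory bulb. Signalling from the receptor through cAMP and the cyclic nucleotide-gated channel sets how much of many sorting molecules an axon carries. Kirrel2 and Kirrel3 are immunoglobulin adhesion proteins that bind to their own kind, and odour-driven activity raises the first and lowers the second. Epha5 is a receptor tyrosine kinase and Efna5 its membrane-anchored ligand; contact between them is repulsive, and they mark complementary sets of axons. Cntn4 (BIG-2) and Pcdh10 (OL-protocadherin) are adhesion molecules found in mosaics of glomeruli. Sema7a is a semaphorin on sensory axons, and Plxnc1 is its plexin receptor on the dendrites of bulb neurons.

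The deposited values are log2 intensities, 1 per probe and pool, so 1 unit is a 2-fold difference. Array medians lay between 7.81 and 7.92. The CT56 pool had the lowest mean correlation with the other pools over all probes (0.975), followed by CT32 (0.981), so values are also given without them where they matter. Markers of mature sensory neurons were present throughout: Omp, the olfactory marker protein, read 12.70 to 13.08, and Cnga2, the channel subunit, 12.32 to 12.84. The mean of 15 mature neuron markers lay between 11.81 at CT44 and 12.10 at CT12, and that of 14 markers of bulb and brain between 8.14 at CT56 and 8.44 at CT40. In bulk tissue, fewer cells of a type and less RNA per cell cannot be told apart.

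A 24 h cosine was fitted to each gene. Its amplitude is the distance from mean to peak in log2 units, given with a standard error (SE). A peak time is given where the amplitude was over 2 SE, as in 5 of the 8 genes. Over all 19937 genes, 2588 had an amplitude over 2 SE. Since the members were chosen on such values, these curves are a description. At an adjusted p of 0.05 over all genes (limma), 0 of the 8 were called, against 0.0251% of all genes. At an unadjusted p under 0.05 there were 5 of 8, against 3.54% of all genes. The amplitudes ranged from 0.07 to 0.80 with a median of 0.14, and the median over all 19937 genes was 0.06.

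**Figure D1:**
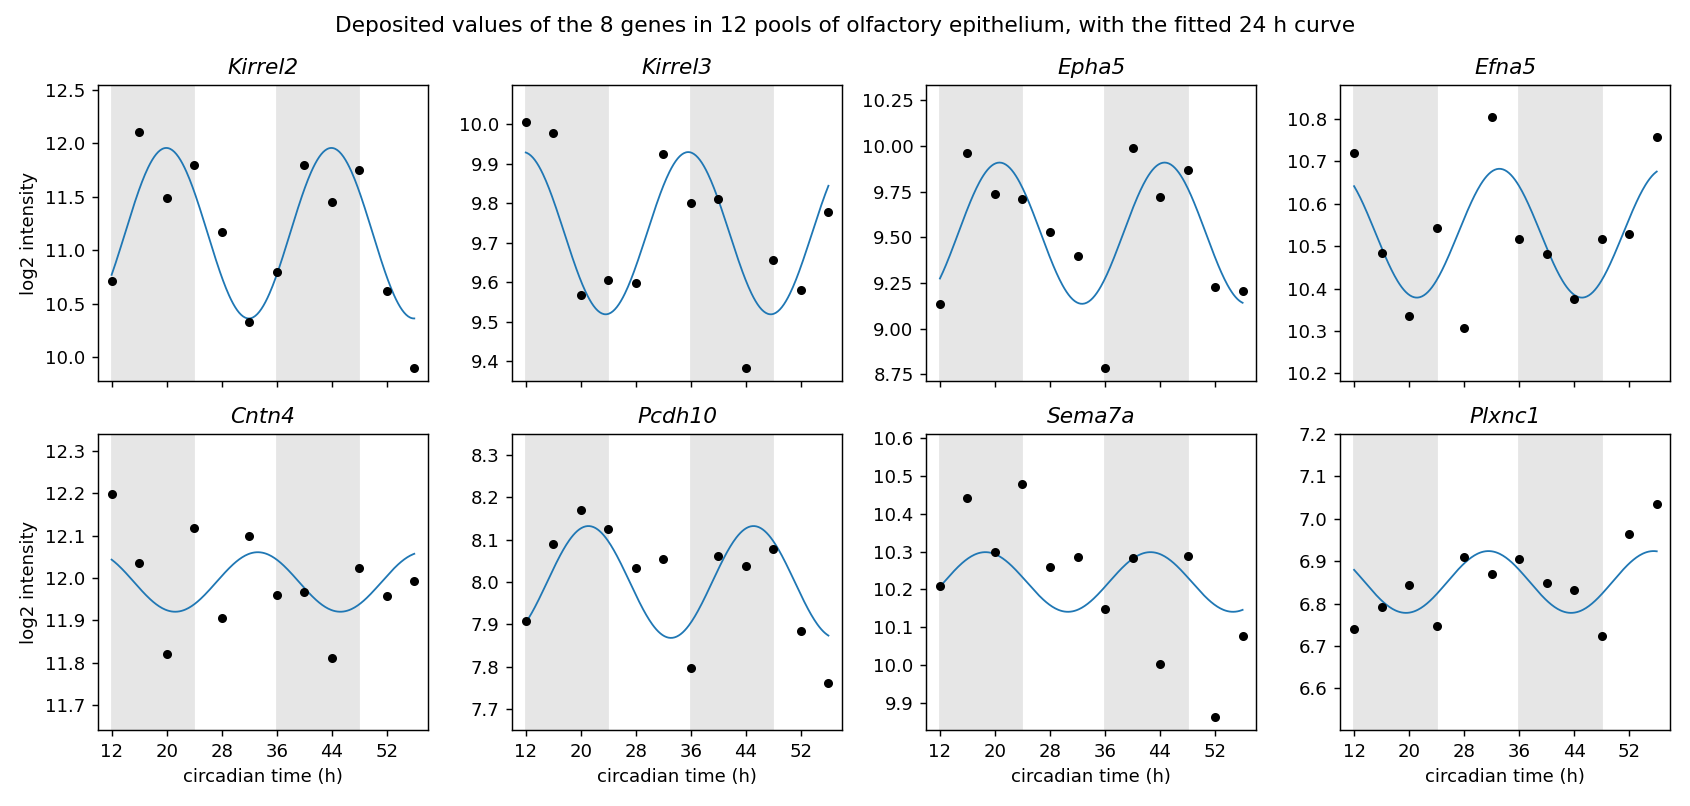
Log2 intensity (vertical axis, a separate scale for each gene) of the 8 genes against circadian time in hours, 1 point per pool of 4 mice; the line is the fitted 24 h cosine and grey marks the subjective night. Kirrel2 moved over 2.20 log2 units and Epha5 over 1.21, while Plxnc1 moved over 0.31.

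Kirrel2 had the largest swing of the 8 genes. In the first cycle it read 10.71 at CT12, 12.10 at CT16, 11.49 at CT20, 11.80 at CT24, 11.17 at CT28 and 10.33 at CT32. In the second cycle it read 10.80 at CT36, 11.80 at CT40, 11.45 at CT44, 11.75 at CT48, 10.62 at CT52 and 9.90 at CT56. The level was high from the early night to dawn and low in the late day in both cycles. The 6 pools of phases 16, 20 and 0 h lay between 11.45 and 12.10 and did not overlap the other 6, between 9.90 and 11.17. That split follows the shape already known for Kirrel2, so nothing is read from the 0.331% of all genes that show it. The level rose by 1.39 log2 units (2.63-fold) from CT12 to CT16. In the second cycle it rose by 0.47 (1.39-fold) from CT32 to CT36, up to dusk, and by 1.00 (1.99-fold) from CT36 to CT40. The fitted amplitude was 0.80 ± 0.13 (SE, 12 pools), with a peak at CT 19.9 ± 0.6 h and the fitted maximum was 3.02-fold the fitted minimum. Fitted alone, the first cycle gave 0.73 ± 0.15 with a peak at CT 20.2, and the second 0.87 ± 0.17 with a peak at CT 19.7. Without the CT56 pool the amplitude was 0.69 ± 0.13, and without CT32 and CT56 together 0.63 ± 0.15.

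In Kirrel2 both pools at phase 20 h lay below their neighbours at 16 and 0 h. A 12 h component beside the 24 h one, which the choice of genes did not use, had an amplitude of 0.38 ± 0.08 in Kirrel2, with maxima at CT 2.5 and 12 h later. Over all genes this did not pass (limma, adjusted p = 0.763, unadjusted p = 0.00244). With array weights it did (limma, adjusted p = 0.0327), as 1 of 68 genes in all. The estimate of array weights stopped before its tolerance in 2 of 4 fits, and which fits these were was not recorded. On the values as deposited, limma called 0% of all genes for 12 h terms; the share with an unadjusted p under 0.05 was 5.33%. Kirrel2 was the 1 member of 8 with an unadjusted p under 0.05, and the others had 12 h amplitudes of 0.02 to 0.17.

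Kirrel3, its counterpart, followed another course with a smaller swing. It read 10.01, 9.98, 9.57, 9.61, 9.60 and 9.93 from CT12 to CT32, and 9.80, 9.81, 9.38, 9.66, 9.58 and 9.78 from CT36 to CT56. The level was high from the late day to the early night. The 6 pools of phases 8, 12 and 16 h lay between 9.78 and 10.01, and the other 6 between 9.38 and 9.66, with no overlap. This split too follows the gene's known course, and nothing is read from its share of 0.0652% of all genes. The fitted amplitude was 0.21 ± 0.05 with a peak at CT 11.6 ± 1.0 h, and 1.33-fold between peak and trough. The first cycle alone gave a peak at CT 12.1 and the second at CT 10.8.

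The fitted peak of Kirrel2 came 8.34 ± 1.32 h after that of Kirrel3 (SE; 95% interval 5.35 to 11.3 h). Both genes were high at phase 16 h and both were below their own means at CT52. Relative to its own mean over the 12 pools, each gene was on the opposite side from its partner in 9 of 12 pools. The difference of these deviations, Kirrel2 minus Kirrel3, ran from -1.31 at CT56 to 0.75 at CT24. The level correlation over the 12 pools was weak (Pearson r = -0.20, Spearman rho = -0.01, and r = 0.00 without CT56 and CT32, the 2 pools farthest from the Kirrel2 median).

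**Figure D2:**
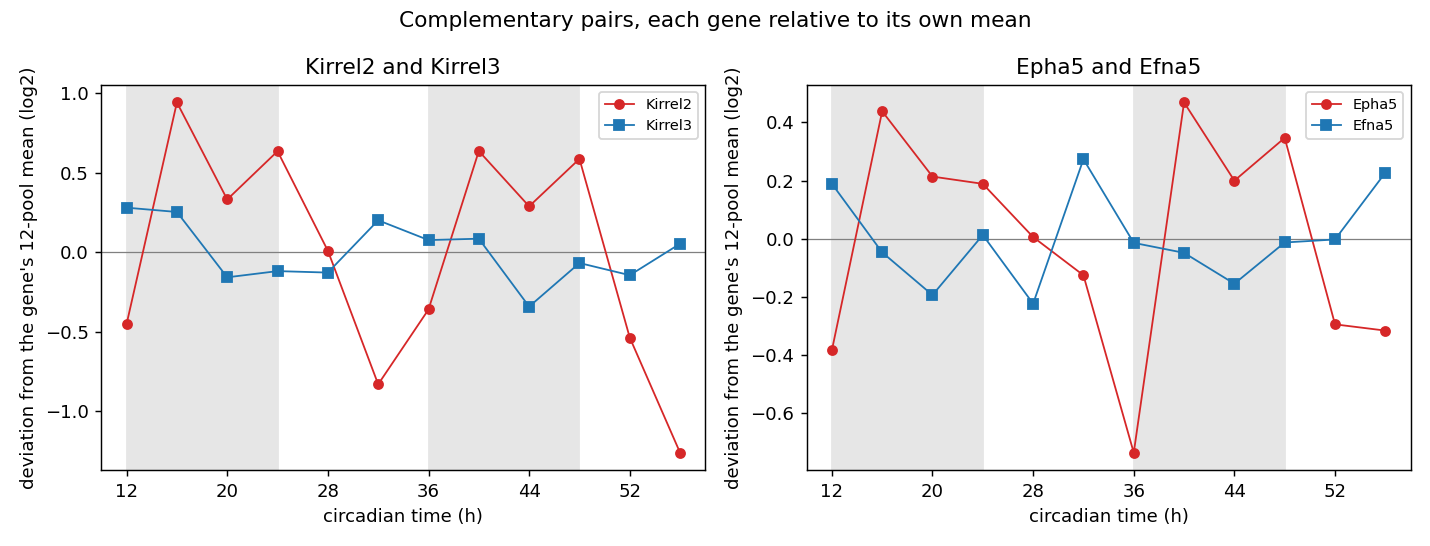
Deviation of each gene from its own mean over the 12 pools (log2, vertical axis) against circadian time in hours, for Kirrel2 (red circles) with Kirrel3 (blue squares) and Epha5 (red circles) with Efna5 (blue squares); each point is 1 pool and grey marks the subjective night. Kirrel2 and Epha5 rise between CT12 and CT16 and between CT36 and CT40, while the partners stay level or fall.

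Epha5 read 9.14 at CT12, 9.96 at CT16, 9.74 at CT20, 9.71 at CT24, 9.53 at CT28 and 9.40 at CT32. In the second cycle it read 8.78 at CT36, 9.99 at CT40, 9.72 at CT44, 9.87 at CT48, 9.23 at CT52 and 9.21 at CT56. The lowest pool of each cycle was the 1 at dusk and the highest was the next, 4 h later, a rise of 0.82 (1.77-fold) in the first and 1.21 (2.31-fold) in the second cycle. The pools of phases 16, 20 and 0 h lay between 9.71 and 9.99, with no overlap with the others, between 8.78 and 9.53. These phases were also picked with the course already known. Nothing is read from this split, which 0.331% of all genes show. The amplitude was 0.39 ± 0.09 with a peak at CT 20.7 ± 0.9 h, and 0.49 ± 0.11 without CT32 and CT56 together.

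Efna5, the ligand, read 10.72, 10.48, 10.34, 10.54, 10.31 and 10.80 from CT12 to CT32, and 10.52, 10.48, 10.38, 10.52, 10.53 and 10.76 from CT36 to CT56. Both pools at phase 8 h were above the other 10 pools, and both at 20 h were among the 4 lowest. These phases were picked with the values of Efna5 known. The share of all genes with such a split was not computed, and nothing is read from it. The amplitude was 0.15 ± 0.05 with a peak at CT 9.1 ± 1.3 h. It rested in part on the phase 8 h pools, since it was 0.09 ± 0.06 without CT32 and CT56 together.

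The fitted peak of Epha5 came 11.5 ± 1.7 h after that of Efna5 (SE; 95% interval 7.61 to 15.5 h), an interval that holds 12 h. The genes were on opposite sides of their own means in 9 of 12 pools, and their difference of deviations ran from -0.72 at CT36 to 0.52 at CT40. The correlation over pools was Pearson r = -0.44 and Spearman rho = -0.50 (12 pools), and r = -0.49 without CT36 and CT12. Within the first cycle r was -0.58 and within the second -0.41, over 6 pools each.

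Across the pairs, Kirrel2 and Epha5 stood on the same side of their own means in 12 of 12 pools. Their Pearson r was 0.80 and Spearman rho 0.83, and r was 0.90 without CT56 and CT32. The fitted peaks lay 0.7 h apart in the order Kirrel2, Epha5, less than the SE of 0.8 h. Among the partners, the peak of Kirrel3 came 2.49 ± 1.30 h after that of Efna5, with a 95% interval of -0.45 to 5.43 h.

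**Figure D3:**
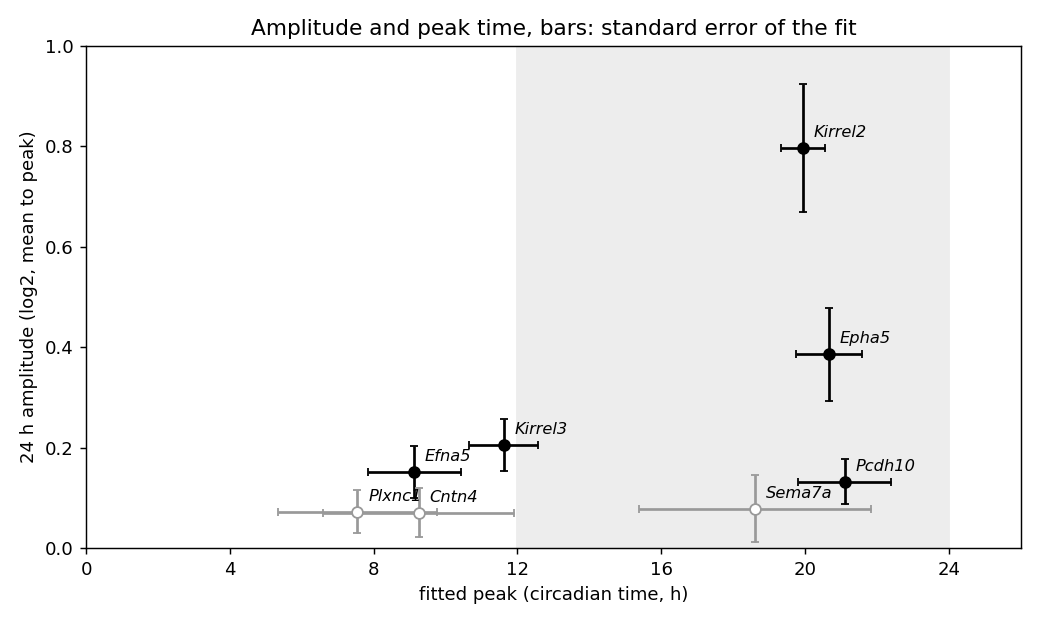
Fitted 24 h amplitude (log2, vertical axis) against fitted peak in circadian hours (horizontal axis) for the 8 genes; bars are the standard error of the fit over 12 pools, open grey points have an amplitude under 2 SE, and grey shading is the subjective night. Kirrel2, Epha5 and Pcdh10 lie between CT 19.9 and CT 21.1, Efna5 and Kirrel3 between CT 9.1 and CT 11.6.

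Pcdh10 shared the night phase at a smaller size. It read 7.91, 8.09, 8.17, 8.12, 8.03 and 8.05 from CT12 to CT32, and 7.80, 8.06, 8.04, 8.08, 7.88 and 7.76 from CT36 to CT56. Its amplitude was 0.13 ± 0.04 with a peak at CT 21.1 ± 1.3 h, and the pools of phases 16, 20 and 0 h overlapped the others through CT32. Its r was 0.84 with Epha5 and 0.76 with Kirrel2 over the 12 pools.

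For Cntn4, Sema7a and Plxnc1 the amplitude was under 2 SE. That line depended on single pools and on scaling. Without CT24 Cntn4 had 0.10 ± 0.05, without CT44 Sema7a had 0.14 ± 0.06, and without CT12 Plxnc1 had 0.09 ± 0.04, each over 2 SE. With all 12 pools kept, Plxnc1 had 0.077 ± 0.038 after quantile normalization. Sema7a had 0.111 ± 0.055 with the mature neuron mean subtracted. These 2 were just over 2 SE as well. Over all 12 pools as deposited, Cntn4 ranged from 11.81 at CT44 to 12.20 at CT12, with a median of 11.98 and an amplitude of 0.07 ± 0.05. Sema7a ranged from 9.86 at CT52 to 10.48 at CT24, with a median of 10.27 and an amplitude of 0.08 ± 0.07. Plxnc1 ranged from 6.72 at CT48 to 7.03 at CT56, with a median of 6.85 and an amplitude of 0.07 ± 0.04. The curve took up 11.1% of the variance over pools in Sema7a, 20.4% in Cntn4 and 33.1% in Plxnc1, against 74.2% in Kirrel2 and 57.8% in Epha5. Phase as a factor, which has more terms than the curve, took up 47.5% in Sema7a, 70.6% in Cntn4 and 68.3% in Plxnc1. It took up 94.3% in Kirrel2 and 91.1% in Epha5.

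Markers of cell types moved with some members more than others. The mature neuron mean had an r of -0.07 with Kirrel2 and -0.09 with Epha5 over the 12 pools, and 0.80 with Cntn4, 0.68 with Kirrel3 and 0.51 with Efna5. With the neuron mean subtracted, the amplitude of Kirrel2 was 0.83 ± 0.12 and that of Epha5 0.42 ± 0.09; the Epha5 peak was at CT 20.7. Kirrel3 then had 0.18 ± 0.04 with a peak at CT 12.1, Efna5 0.11 ± 0.05, Pcdh10 0.17 ± 0.04 and Cntn4 0.03 ± 0.04. Sema7a had 0.11 ± 0.05, just over 2 SE, with a peak at CT 19.4, and Plxnc1 had 0.04 ± 0.06. Cntn4 and Kirrel3 also ran against blood and immune markers (9 of 12 measured, r = -0.88 and -0.75) and against the 6 endothelial markers (r = -0.86 and -0.79). The mean of the blood list lay between 7.51 at CT12 and 7.85 at CT44, and that of the endothelial list between 7.82 at CT16 and 8.13 at CT44. Connective tissue markers (11 of 12 measured, means of 8.21 to 8.72) had an r of -0.72 with Cntn4 and -0.63 with Efna5. Sustentacular markers (9 of 10 measured, 10.99 to 11.12) had 0.70 with Cntn4 and -0.68 with Plxnc1. The gland markers (11 of 14 measured) ran from a mean of 10.01 at CT12 to 12.20 at CT44, with an r of -0.49 with Kirrel3. CT44 held the lowest values of Cntn4 and Kirrel3 and the lowest neuron mean, and the highest means of the gland, connective tissue, blood and endothelial lists. The part of these cells in the values was not tested.

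Levels in the second cycle were set against those in the first, phase by phase, a contrast that the choice of members did not use. No member passed over all genes (limma, adjusted p between 0.304 and 0.989), and 0% of all genes did. Sema7a read lower in 6 of 6 pairs of pools that lie 24 h apart, at a mean of 10.33 in the first and 10.11 in the second cycle, a difference of -0.22 ± 0.06 (SE; limma, adjusted p = 0.304). Pcdh10 read lower in 6 of 6 pairs as well, by -0.13 ± 0.05 (limma, adjusted p = 0.352), and Kirrel2 in 5 of 6, by -0.21 ± 0.08 (limma, adjusted p = 0.325). All 6 pairs were lower in 6.1% of all genes and higher in 1.58%. At an unadjusted p under 0.05, 3 of 8 members were lower, against 8.94% of all genes, and 0 were higher, against 4.22%. Efna5 differed by 0.00 ± 0.06, and Plxnc1 was the 1 member that read higher, by 0.07 ± 0.05. The mature neuron markers were lower in the second cycle in 6 of 6 pairs too, by a mean of -0.12 ± 0.07 (SD, 6 pairs). With that mean subtracted, Sema7a differed by -0.10 ± 0.06, Kirrel2 by -0.10 ± 0.09, Pcdh10 by -0.01 ± 0.05 and Plxnc1 by 0.19 ± 0.06. Time in darkness and any batch that runs with the cycle cannot be told apart.

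**Figure D4:**
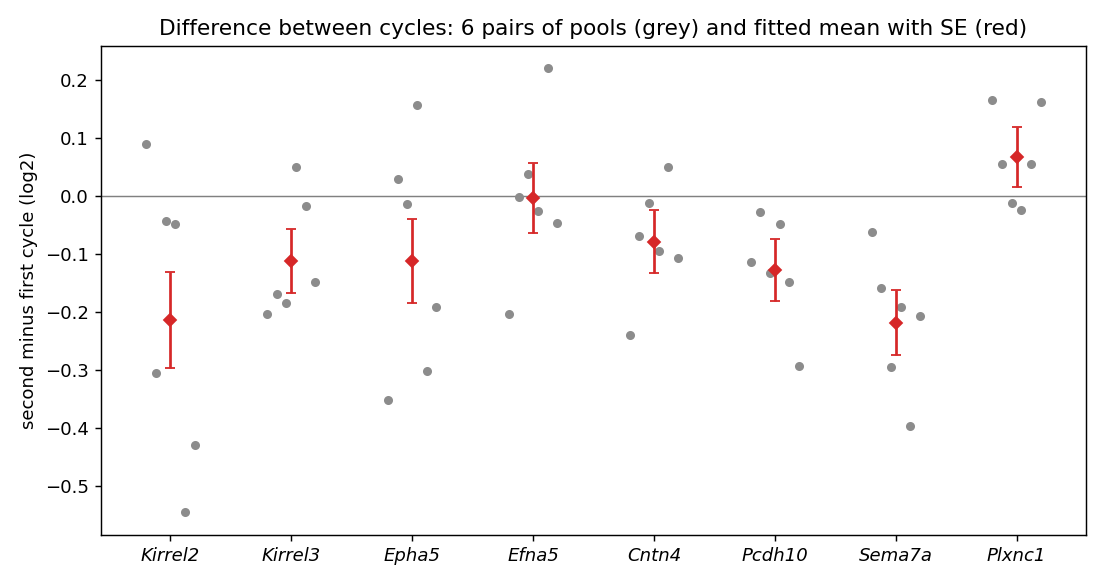
Second minus first cycle (log2, vertical axis) for the 8 genes; grey points are the 6 pairs of pools 24 h apart and red diamonds the fitted mean with its standard error. Sema7a and Pcdh10 lie below 0 in all 6 pairs, and Plxnc1 is the 1 gene with a mean above 0.

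A change of the 24 h curve from the first to the second cycle called 0% of all genes in limma (0.717% at an unadjusted p under 0.05). None of the 8 members was called (limma, adjusted p = 0.9999 for each), and 0 had an unadjusted p under 0.05. The amplitude of the difference between the cycles' curves was 0.18 in Kirrel2 and 0.21 in Epha5. Each cycle holds 6 pools, which limits what size of change could be called.

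Other genes of the same families were read from lists named for their function, without the 8 members, and 0 of 100 such genes were called in the 24 h fit (limma). At an unadjusted p under 0.05 there were 5 of the 100, near the 3.54% of all genes. Of 19 measured Eph receptors and ephrins, 1 had an unadjusted p under 0.05, Epha7, a receptor of the same class as Epha5. It read 8.47, 9.71, 8.95, 9.67, 8.63 and 8.79 from CT12 to CT32, and 8.57, 9.70, 9.41, 9.60, 8.40 and 8.44 from CT36 to CT56. Its pools at phases 16, 20 and 0 h, from 8.95 to 9.71, did not overlap the others, which reached 8.79. This is the split picked for Kirrel2, shown by 0.331% of all genes, and nothing is read from it. Like Kirrel2, Epha7 dipped at phase 20 h in both cycles. The amplitude was 0.57 ± 0.13 with a peak at CT 19.9, and r was 0.87 with Kirrel2 and 0.86 with Epha5. Efna2, an ephrin, came next in its list, with 0.13 ± 0.06 and a peak at CT 5.2. The median amplitude of the 19 genes was 0.07, close to the 0.06 of all genes.

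Of 9 measured relatives and adaptors of the Kirrel proteins, 2 had an unadjusted p under 0.05. Nphs1, which encodes nephrin and has 2 probes, peaked at CT 23.7 (amplitude 0.14 ± 0.04 from the brighter). Kirrel, the third Kirrel protein gene, had 0.15 ± 0.05 with a peak at CT 9.0. Its r was 0.80 with Cntn4, which has no peak time, 0.73 with Efna5 and 0.71 with Kirrel3. Of 16 contactins and partners there was 1, Cntn6, a contactin, at 0.13 ± 0.05, followed by Cntn1 at 0.11 ± 0.04. The 9 other delta protocadherins (Pcdh19 and Pcdh7 leading, at 0.09 ± 0.05 and 0.11 ± 0.06), the 10 plexins and integrins that go with Sema7a (Plxna1 at 0.14 ± 0.06 and Itga1 at 0.10 ± 0.05) and 15 further axon adhesion molecules (Tenm2 at 0.18 ± 0.07 and Cadm1 at 0.08 ± 0.04) held 0. Among 22 genes of the receptor, cAMP and channel pathway that drives axon sorting there was 1, the chloride importer Slc12a2 at 0.11 ± 0.04, followed by the cAMP-responsive factor Creb1 at 0.14 ± 0.05. Their median amplitude was 0.05. Adcy3, the cyclase of the cilia, had 0.03 ± 0.06 and Cnga2 0.10 ± 0.06, both under 2 SE.

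Between the cycles, 0 genes of these 7 lists passed in limma. The second cycle read lower in 16 of 19 Eph receptors and ephrins, 14 of 15 adhesion molecules, 8 of 10 plexins and integrins, 19 of 22 genes of the signalling pathway, 7 of 9 Kirrel relatives, 7 of 9 delta protocadherins and 9 of 16 contactins and partners, against 12295 of all 19937 genes. At an unadjusted p under 0.05, against 8.94% of all genes lower and 4.22% higher, the signalling list held 9 lower and 2 higher. Many of its genes are also in the list of mature neuron markers. Of these shared genes, Omp, Cnga2, Cngb1, Adcy3, Ano2 and Rtp1 were among the lower. Gng13 was among the higher, by 0.15 ± 0.06 (SE). Gnal, Cnga4, Stoml3, Rtp2 and Ric8b differed by -0.08 to -0.03 and were in neither count. The mean of the mature neuron markers was lower in 6 of 6 pairs, so the signalling counts are not separate from it. The adhesion molecules and the plexins and integrins held 5 lower each, the Kirrel relatives and the contactins 2 each, and the Eph and protocadherin lists 1 each, with 0 higher in these 6 lists. The medians of the 7 lists lay between -0.12 and -0.02, and that of all genes was -0.03.

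The genes whose values over the 12 pools were most like those of each member were sought among 17039 others, leaving out odorant and vomeronasal receptors, predicted genes and small RNAs. For Kirrel2 these were Kcnmb3, an auxiliary subunit of a calcium-activated potassium channel (Pearson r = 0.98), Lmcd1 (0.95), Slc37a2 (0.92) and Adgrf1 (0.91), and 5 genes in all were above 0.9. Kcnmb3 peaked at CT 19.3 (amplitude 0.51 ± 0.10) and read 11.54 at CT16 and 9.93 at CT56. Gramd1c ran most against Kirrel2 (r = -0.95), with a peak at CT 8.0. For Epha5 the most similar were Rflnb, Nprl2, Ksr2 and Ypel4, each at 0.94, and the most opposed was Tmem221 (-0.88). Ksr2, a scaffold of the MAP kinase pathway, peaked at CT 20.4 (amplitude 0.49 ± 0.10). For Pcdh10 they were Eftud2, Ubl3 and Rad21, each at 0.94, and Abcg1 (0.93), with Gamt most opposed (-0.86). For Kirrel3 they were Il18bp (0.92), Rrnad1 (0.87), Astn2 (0.86) and Plpp7 (0.86), with Il1rl2 most opposed (-0.94). For Efna5 they were Brd8 (0.92), Dnajb13 (0.91), Rnf128 (0.90) and Necab1 (0.89), with Tek most opposed (-0.91). Without the 2 pools farthest from the member's median, r was weaker for all of these genes except Rnf128 and Necab1. It was then 0.97 for Kcnmb3 and 0.84 for Slc37a2 with Kirrel2, and 0.76 for Astn2 with Kirrel3. With Pcdh10 it was 0.84 for Ubl3 and Rad21, 0.82 for Abcg1 and -0.71 for Gamt. For Rnf128 and Necab1 with Efna5 it was 0.91. These values describe shared pools and carry no test.

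**Figure D5:**
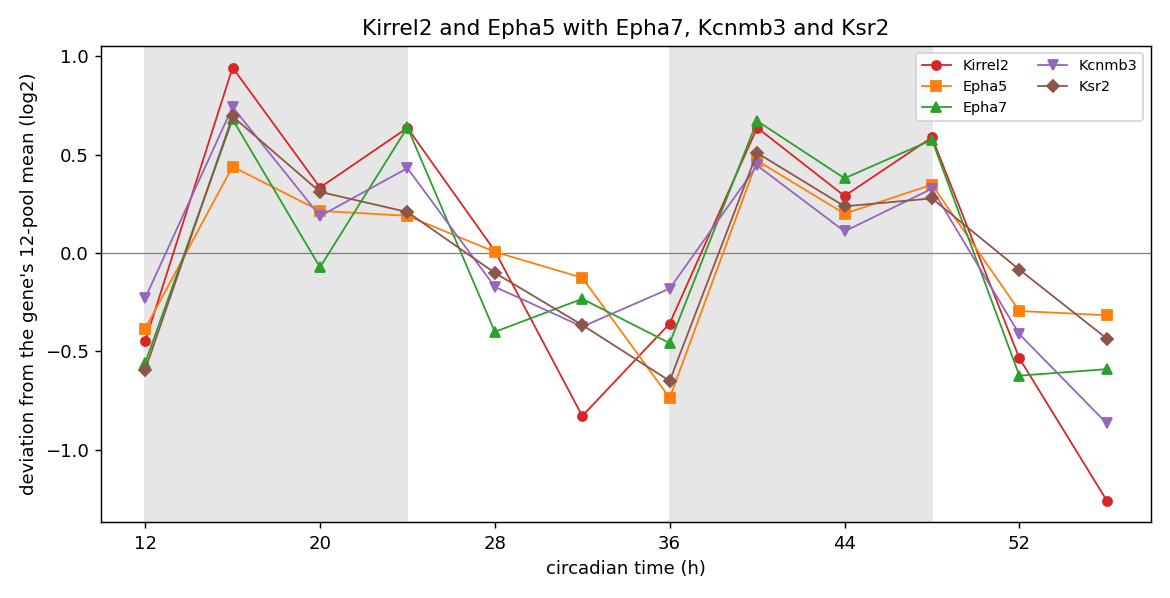
Deviation from each gene's own mean over the 12 pools (log2, vertical axis) against circadian time in hours for Kirrel2, Epha5, Epha7, Kcnmb3 and Ksr2; each point is 1 pool and grey marks the subjective night. All 5 genes are higher at CT16 than at CT12 and higher at CT40 than at CT36.

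The sequences next to the transcription starts were looked at because Kirrel2, Epha5 and Pcdh10 moved together and Efna5 against them. RefSeq promoter windows (GRCm38.p6) were at hand for 7 of the 8 genes, Kirrel3 being without an entry, and the 250 bases before the start were searched on both strands. The letters sought were the E-box CACGTG, the D-box TTANGTAA, the ROR element core AGGTCA, the cAMP element TGACGTCA and its core TGACG (which the full element contains), the EBF core CCCNNGGG and the homeodomain core TAATTA. Of all 32851 windows, 6.02% hold the first, 2.06% the D-box, 14% the ROR core, 1.55% the full cAMP element, 17.8% its core, 11.8% the EBF core and 4.84% TAATTA. Kirrel2 and Efna5 held 0 of these. Pcdh10 held the cAMP core at 116 and 103 bases before its start, Epha5 held TAATTA at 230 bases, and Cntn4, with 2 windows, held a D-box in one and TAATTA in the other. Sema7a and Plxnc1 held 0. The windows that lie outside the annotated gene and belong to a member with a peak time are printed 5′ to 3′, with matches in capitals. They lie at chr7:30457516-30457765 (minus strand) for Kirrel2, chr17:62881318-62881567 (minus strand) for Efna5 and chr3:45378148-45378397 (plus strand) for Pcdh10. A match is a description of letters, not a binding site.
Kirrel2: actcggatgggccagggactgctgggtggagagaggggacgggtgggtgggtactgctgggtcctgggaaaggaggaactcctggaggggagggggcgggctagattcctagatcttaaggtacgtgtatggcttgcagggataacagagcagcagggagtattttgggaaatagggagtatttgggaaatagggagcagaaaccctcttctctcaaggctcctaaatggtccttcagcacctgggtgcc
Efna5: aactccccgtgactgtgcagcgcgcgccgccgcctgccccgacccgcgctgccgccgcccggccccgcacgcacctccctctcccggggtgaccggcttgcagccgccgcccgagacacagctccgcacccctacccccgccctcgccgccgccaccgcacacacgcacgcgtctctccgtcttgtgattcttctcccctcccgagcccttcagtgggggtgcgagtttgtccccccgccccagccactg
Pcdh10: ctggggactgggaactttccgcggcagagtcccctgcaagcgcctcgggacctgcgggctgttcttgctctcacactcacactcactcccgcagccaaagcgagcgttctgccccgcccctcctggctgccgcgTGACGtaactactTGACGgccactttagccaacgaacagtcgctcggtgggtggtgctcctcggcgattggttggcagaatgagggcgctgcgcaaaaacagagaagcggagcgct
The Kirrel2 stretch is 56.4% G and C and the Efna5 stretch 74.8%, against a median of 52.4% over all windows.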

How the data were processed

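Each deposited value is a log2 intensity, 1 per probe and pool from Affymetrix whole-transcript arrays. The submitters' processing notes name the tool affy, with no version or role; how background was corrected and arrays normalized is not given in these sources. The log2 scale was read from the range of the deposited values, 3.48 to 14.47, which passes 11.09, the natural log of the largest 16-bit value, and stays under 16. Values were used as deposited. Of 34760 probes, 21640 had 1 gene symbol, and the probe with the highest mean stood for each of 19937 genes.

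All fits ran over all 19937 genes with limma 3.58.1 in R 4.3.3 (data.table version 1.17.8), with Benjamini-Hochberg adjustment and a threshold of 0.05: 24 h terms (9 residual degrees of freedom), 12 h terms beside them, cycle with phase as a factor, and the 24 h terms by cycle. SEs of peaks and delays are by the delta method, those of delays with the residual correlation of both genes. Each fit was run on simulated data with normal noise and no misfit of the cosine. Delays were simulated only for amplitudes larger than those of Kirrel3 and Efna5. The intervals of the delays reported here were therefore not checked at such small amplitudes. Each time point is 1 pool, so p-values measure the spread between pools, and precision is limited by how many arrays there are. In the cosine fits that spread also holds departures from the curve that repeat between pools of 1 phase. In Kirrel2 the 24 h cosine took up 74.2% of the variance and phase as a factor 94.3%. The SEs of amplitudes, peaks and delays therefore include misfit of the cosine. The members, lists and rules were chosen with earlier results of these data known. Where a gene had several probes, the others were not described. Named genes are the members, the 4 genes most like and the 1 most opposed for each with an amplitude over 2 SE, and the 2 leading genes of each list; Adcy3, Cnga2 and Omp were named as tissue and pathway checks. Alternatives were other scalings, filters, priors, weights, trends, periods, a subtracted neuron mean and left-out pools. Marker lists not described beside a member (immature neurons, both basal cell types, ensheathing and ciliated cells) had 24 h amplitudes of the list mean between 0.01 and 0.10. Figures used matplotlib 3.10.9, numpy 2.4.6 and Python 3.11.15.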

Additional observations from a re-analysis of the deposited data

Results flagged for a closer look

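Each member was screened within the 6 pools of each cycle for a pool that lay far from the rest. In 16 such groups 1 was found, where chance gives about 0.8. The CT44 pool was low in Cntn4 among the pools of the second cycle, with a gap of 0.694 of the range, above Dixon's 95% critical value for 6 samples. It read 11.81 there, as against 11.82 at CT20, the same phase in the first cycle.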

How the results depend on the processing

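The delay of Kirrel2 after Kirrel3 lay between 7.49 and 9.55 h when single pools were left out and between 7.87 and 9.31 h under the other settings. The delay of Epha5 after Efna5 lay between 10.1 and 12.5 h and between 10.5 and 12.5 h. The delay of Kirrel2 after Kirrel3 was 9.55 ± 1.47 h without CT16, 9.31 ± 1.47 h with a linear term of time, 8.97 ± 1.45 h with a period of 26 h and 8.94 ± 1.43 h with array weights (SE). All 48 of these values moved by less than 1 SE. The 10.5 h came without CT32 and CT56 together, where the Efna5 amplitude of 0.09 was under 2 SE. By the rule used here Efna5 has no peak time in that setting, so that delay is not defined. Of 191 peak times, 177 moved by less than 1 SE, and of the 14 others, 11 came with a period of 22 or 26 h. The 191 include Cntn4, Sema7a and Plxnc1, whose peak SEs of 2.2 to 3.2 h make this a loose bound. All 191 amplitudes of the members moved by less than the SD between pools of 1 phase. This bound is loose too for the small amplitudes. That SD was 0.17 in Sema7a, 0.08 in Cntn4 and 0.07 in Plxnc1, against amplitudes of 0.08, 0.07 and 0.07. It also let pass a fall of Efna5 from 0.15 to 0.09 without CT32 and CT56 together. The number of members called in the 24 h fit was 0 under every setting run. The number of all genes called there was 0 with a period of 22 h, 2 with one of 26 h and 3 to 5 with a pool left out. Between cycles, 1 gene was called without the genes under the 25th percentile, 1 with a trended robust prior, 17 with array weights and 0 to 18 with a pool left out (18 without CT12 or without CT36, which are the same fit); 0 members were among them. The 12 h terms called 68 genes with array weights, Kirrel2 included, and 0 with any pool left out, and the change of curve called 0 throughout. The cycle differences of Efna5 with a pool left out ran from -0.05 to 0.04. With the neuron mean subtracted, those of Kirrel3, Epha5, Efna5 and Cntn4 were 0.01, 0.01, 0.12 and 0.04. The difference of Plxnc1 grew from 0.07 ± 0.05 as deposited to 0.19 ± 0.06 with this subtraction (SE, limma, adjusted p = 0.112). Plxnc1 fell under the 25th percentile filter and has no value there. No background probes were used, so a detection limit for the dim Plxnc1 probe is not given.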
